A study of Mus musculus with 10 samples.

Results

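Prdx1 to Prdx6, Cat, Gpx1, Gpx4 and Sod1 are 10 genes of peroxide and superoxide removal, followed here in newly made RNA and in the binding of KLF3 and KLF1 in mouse erythroid lines. They were chosen by name, with earlier results of these data known. All 10 have a row among the 23309 named genes of the authors' RNA table, and all 10 are among the 9619 genes that the authors tested. By the nearest start site that the authors give, 5 of 3800 KLF1 peaks and 4 of 4579 KLF3 peaks belong to them.

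The RNA came from J2E, a mouse erythroid line immortalised from fetal liver, and from J2E-KLF3-ER, which is J2E carrying a fusion of KLF3 to an estrogen receptor (ER) part that tamoxifen switches on. Each group had 3 libraries. The J2E-KLF3-ER cells were clone A, clone C and clone E, 1 library each, and all received 200 nM 4-hydroxytamoxifen. J2E libraries 1 and 2 received the drug as well, while J2E library 3 is labelled as given ethanol. RNA made during 30 minutes was marked with 500 µM 4-thiouridine (4sU), so the values follow recent transcription rather than the standing pool of messenger RNA. Chromatin came from J2E-KLF3-ER clone C, immunoprecipitated with an ER antibody, and from K1-ER clones A and C, which are Klf1-null erythroblasts with an inducible KLF1-ER, immunoprecipitated with a KLF1 antibody. Both had 3 hours of tamoxifen and an input library, and each chromatin library pooled 3 replicates. No J2E-KLF3-ER RNA library without tamoxifen was analysed here, so the fusion's activation and differences between lines or clones cannot be told apart.

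Hemoglobin and oxygen together make red cells a steady source of superoxide and hydrogen peroxide. Superoxide dismutases turn superoxide into hydrogen peroxide, which catalase, the glutathione peroxidases and the peroxiredoxins then reduce. Peroxiredoxins do this with a reactive cysteine that thioredoxin usually restores, and glutathione peroxidases draw on glutathione, so both depend on NADPH. Prdx2 protein is among the most abundant proteins of the mature red cell, and mice without it develop hemolytic anemia. KLF1 is the main erythroid activator of the Krüppel-like family, and KLF3 is a repressor that recognises similar DNA.

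The table holds 1 pooled FPKM value per group (fragments normalised to transcript length and to library size), with the authors' log2 fold change of J2E-KLF3-ER over J2E, p-value and q-value. Library depths are therefore unknown here and no replicate spread can be set beside a level. A gene is called changed at an authors' q below 0.05, which 2.72% of tested genes reached, 1.90% falling and 0.821% rising. For Klf3, whose row takes in fusion reads as well, the authors' deposited table gives 7.46 FPKM in J2E and 180 FPKM in J2E-KLF3-ER. Of the 13 erythroid markers listed, 9 have a row, and all 9 were tested; Tal1, Tfrc and Hba-a2 stood at 50.6, 102 and 133 FPKM in J2E by the authors' deposited table. Klf1, Epor and Slc4a1 were the 3 that fell. The summed level of the erythroid markers was 582 FPKM in J2E and 413 FPKM in J2E-KLF3-ER. Lymphoid and mast cell markers summed to at most 1.05 FPKM in either group, with Ptprc, Fcer1a and Mcpt8 listed at 0. The 6 myeloid markers summed to 33.6 and 26.9 FPKM, mostly Csf1r, and the 5 megakaryocyte markers to 157 and 175 FPKM, mostly Pf4 and Itga2b; their part in the results below was not tested.

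Prdx2 was the member that fell, and no member rose, beside 1.90% falling and 0.821% rising among all tested genes. The authors' deposited table gives it 109 FPKM in J2E and 64.1 FPKM in J2E-KLF3-ER, so that the J2E-KLF3-ER value was 58.9% of the J2E value. The authors' deposited table lists this as -0.76 on the log2 scale, with a test statistic of -3.02, p = 5e-05 and q = 0.00408, the smallest p and q that it contains. That smallest p is shared by 118 genes, so it does not set Prdx2 apart from them. Prdx2 lies on chromosome 8 at 87493547 to 87498212 (mm9, forward strand). Ranked by size of fall it was number 141 of 183 falling genes, so the fall was among the smaller ones called. In bulk libraries, fewer cells making a transcript and less of it per cell cannot be told apart. The other 9 members were not called. At p below 0.05 without adjustment, 2 of the 10 members passed, Prdx2 and Cat, beside 15.4% of all tested genes.

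Prdx2 also had the highest level of the 10 in both groups. In J2E it exceeded Cat, the next member, 2.37-fold, and stood at percentile 96.4 of all tested genes by FPKM. In J2E-KLF3-ER it exceeded Sod1, then the next, 1.46-fold. The summed FPKM of the 10 members was 349 in J2E and 301 in J2E-KLF3-ER, and Prdx2 made up 31.2% and 21.3% of it. In J2E the order below Cat was Gpx1, Prdx1, Sod1, Prdx6, Prdx4, Prdx3, Gpx4 and Prdx5, and with no spread deposited it was not testable whether neighbours in it, such as Prdx6, Prdx4 and Prdx3, differ.

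**Figure D1:**
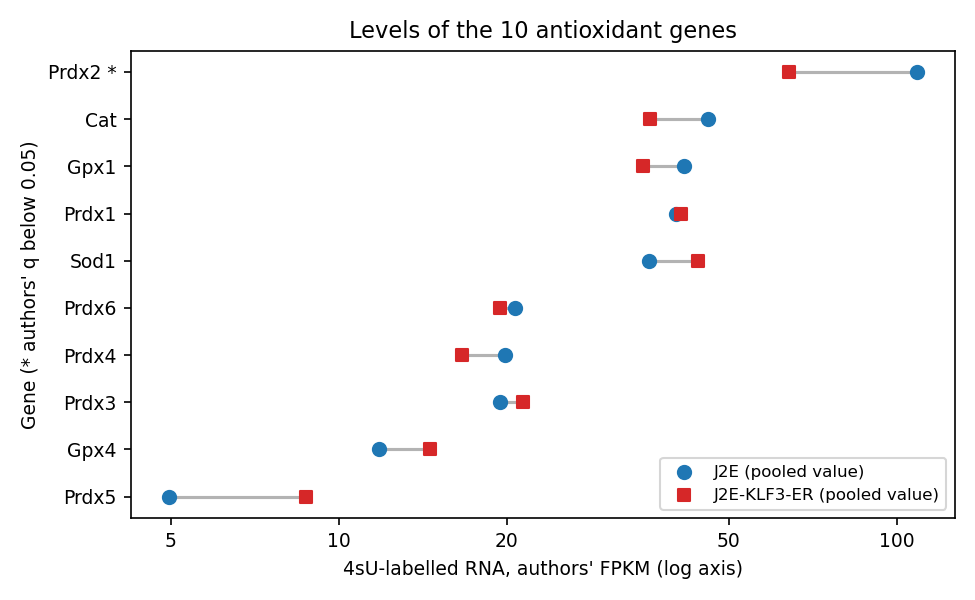
Authors' pooled FPKM of each of the 10 genes in J2E (circles) and J2E-KLF3-ER (squares) on a log axis, 1 value per group with no error available. Prdx2 drops from 109 to 64.1 FPKM, while the next highest squares, those of Sod1 and Prdx1, lie at 44.0 and 41.1 FPKM.

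The cytosolic relative Prdx1, a close paralog with the same chemistry as Prdx2, was not called. For Prdx1 the authors' deposited table gives 40.2 FPKM in J2E and 41.1 FPKM in J2E-KLF3-ER, a difference of 0.03 on the log2 scale with q = 0.965. Its row, on chromosome 4 at 116357570 to 116372605, spans the same interval as AV051173, so reads of this pair may not be cleanly assigned. The difference in response between Prdx1 and Prdx2 was not tested.

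Among the organelle members, Prdx3, which works in mitochondria, is given by the authors' deposited table at 19.4 and 21.4 FPKM (log2 fold change 0.14, q = 0.838). Prdx4, the peroxiredoxin of the endoplasmic reticulum, had 19.9 and 16.6 FPKM by the authors' deposited table (log2 fold change -0.26, q = 0.703). These 2 genes lay on opposite sides of 0, and neither was called.

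Prdx5, found in mitochondria, peroxisomes and cytosol, had the lowest level of the 10 in both groups. The authors' deposited table gives it 4.96 FPKM in J2E and 8.72 FPKM in J2E-KLF3-ER. With a test statistic of 1.44, p = 0.0806 and q = 0.401 in the authors' deposited table, this log2 fold change of 0.82 did not pass. It was larger in size than that of Prdx2 as deposited, but not with 1 FPKM added to both values (0.71 beside -0.75), nor less the median of all tested genes (0.789 beside -0.790) or of its chromosome (0.69 beside -0.77). Its J2E level was at percentile 16.3 of tested genes, and its log2 fold change at percentile 97.6. Prdx6, which reduces phospholipid hydroperoxides with a lone active cysteine, had 20.7 and 19.5 FPKM by the authors' deposited table (log2 fold change -0.09, q = 0.884).

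Cat, the gene of catalase, had the second highest level in J2E. The authors' deposited table gives it 45.9 FPKM there and 36.2 FPKM in J2E-KLF3-ER. On the log2 scale this was -0.34, with p = 0.0449 and q = 0.307 by the authors' deposited table, so it did not pass after adjustment. Gpx1, the cytosolic selenoenzyme that reduces hydrogen peroxide, had 41.6 and 35.1 FPKM by the authors' deposited table (log2 fold change -0.25, q = 0.635). Gpx4, which reduces lipid hydroperoxides inside membranes and is also a selenoenzyme, had 11.8 and 14.6 FPKM by the authors' deposited table (log2 fold change 0.30, q = 0.684). Sod1, the copper and zinc superoxide dismutase, had 35.9 and 44.0 FPKM by the authors' deposited table (log2 fold change 0.29, q = 0.619). The hydrogen peroxide enzymes Cat and Gpx1 were thus lower, and Gpx4 and Sod1 higher, in J2E-KLF3-ER, none of them past the threshold.

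As a group the 10 genes showed no common direction. Log2 fold changes were below 0 for 5 members and above 0 for 5, with a median of -0.03 beside 0.03 over all tested genes. Of the 6625 tested genes within the members' range of mean FPKM, the central 90% lay between -0.55 and 0.53, and Prdx2 and Prdx5 were the members outside that range. The median fold change of tested genes differs between chromosomes. Less the median of its chromosome, Prdx3 went from 0.14 to 0.02, Prdx6 from -0.09 to -0.25, Prdx5 from 0.82 to 0.69 and Prdx2 from -0.76 to -0.77. No member's sign changed.

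Related genes were taken as 6 lists, of which 85 of 116 listed genes were tested. Here 2 genes fell, Gclm and Keap1, and none rose, a share close to the background of 2.72% of tested genes. At p below 0.05 without adjustment, 13 of the 85 passed in either direction, a share at the background of 15.4%. The median log2 fold change over the 85 genes was 0.03, the same to 2 decimals as over all tested genes.

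In the thioredoxin list, the arm that restores peroxiredoxins, none of 15 tested genes was called, beside 2.72% of all tested genes. None of the list had p below 0.05, beside 15.4% of all tested genes. By the authors' deposited table its highest members were Txnl4a, a thioredoxin-like splicing factor, at 64.1 and 75.7 FPKM, and Txnip, an inhibitor of thioredoxin, at 45.8 and 45.9 FPKM. The median of the list was 0.00 on the log2 scale. In the glutathione list, 1 of 17 tested genes fell and none rose, beside 1.90% and 0.821% of all tested genes. In either direction 5 had p below 0.05, beside 15.4% of all tested genes. Those 5, named after their values were seen, were Gclm and Mgst1, lower in J2E-KLF3-ER, and Ggct, Gstp1 and Chac1, higher. Gclm, the modifier subunit of the enzyme that makes the first bond of glutathione, fell by 0.68 on the log2 scale, with 63.6 and 39.6 FPKM and q = 0.00408 by the authors' deposited table. Slc3a2, a heavy chain of amino acid transporters that include the cystine importer, had 61.3 and 54.2 FPKM by the authors' deposited table and was not called (q = 0.658).

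In the list of NRF2 and BACH1 regulators, which control many antioxidant genes, 1 of 14 tested genes fell, beside 1.90% of all tested genes. In either direction 4 had p below 0.05, beside 15.4% of all tested genes. Those 4, named after their values were seen, were Keap1, Maff and Nfe2, lower in J2E-KLF3-ER, and Trp53, higher. The gene that fell was Keap1, the adaptor through which NRF2 is degraded, which by the authors' deposited table had 29.4 and 18.7 FPKM (log2 fold change -0.65, q = 0.0435). Nfe2, an erythroid and megakaryocyte transcription factor related to NRF2, stood at 65.9 and 44.7 FPKM and did not pass (q = 0.0550), and Mafk, a small MAF partner, at 87.2 and 81.1 FPKM (q = 0.824), all by the authors' deposited table. This list had a median of -0.05.

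The other 3 lists held no called gene, beside 2.72% called and 15.4% at p below 0.05 among all tested genes. The NADPH list, with the pentose phosphate enzymes, had 10 of 13 tested genes above 0, beside 5140 of all 9619 tested genes. Its median was 0.23, beside 0.03 over all tested genes, with 1 gene at p below 0.05, and a shared rise was not tested. Tkt stood at 42.9 and 41.4 FPKM and Taldo1 at 40.1 and 45.8 FPKM by the authors' deposited table. In the list of other antioxidant and heme-handling genes, 16 were tested, with a median of -0.04 and 1 gene at p below 0.05. Its highest levels by the authors' deposited table were those of the ferritin chains Ftl1, at 214 and 166 FPKM, and Fth1, at 132 and 119 FPKM. The selenoprotein synthesis list, which serves Gpx1 and Gpx4, had a median of 0.16 over 10 tested genes, with 2 at p below 0.05; Sephs2 stood at 53.4 and 66.0 FPKM and Trit1 at 30.3 and 35.1 FPKM by the authors' deposited table.

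**Figure D2:**
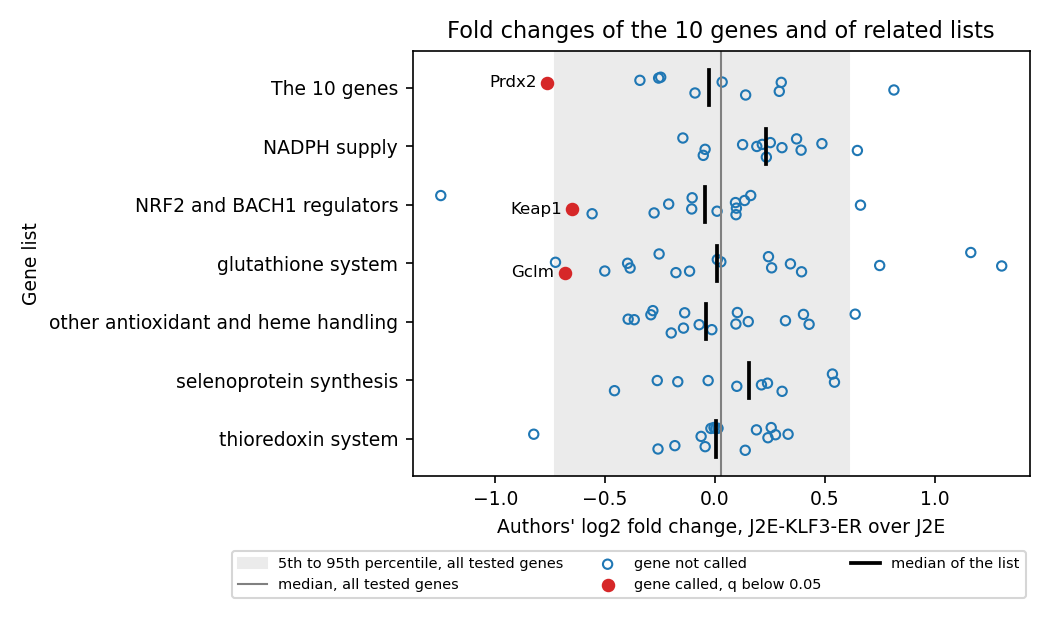
Authors' log2 fold change of J2E-KLF3-ER over J2E for the 10 genes and the tested genes of 6 related lists, 1 point per gene, with filled points for genes at q below 0.05 and bars for list medians. Prdx2, Gclm and Keap1 are the filled points, all below 0, and the shaded band spans -0.73 to 0.61, the central 90% of tested genes.

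Binding was assigned to 5 of the 10 genes. KLF3 peaks belonged to Prdx2, Prdx3, Prdx6 and Sod1, and KLF1 peaks to Prdx2, Prdx3, Prdx6 and Gpx1. Peaks of both factors that overlapped were found at Prdx2, Prdx3 and Prdx6. Over all tested genes, 32.3% had a KLF3 peak, 19.1% a KLF1 peak and 10.6% overlapping peaks of both, beside 4, 4 and 3 of the 10 members. Each factor has 1 library of pooled replicates, so no test of binding between samples was possible, and enrichment values are the authors' and are read only within their own list. The lists differ in cell line and antibody as well as in factor.

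At Prdx2 the peaks lay inside the gene rather than at its start. The KLF1 peak covered 87494902 to 87495196 on chromosome 8 (mm9) and was annotated as intronic, with an enrichment of 19.5 and rank 556. The KLF3 peak covered 87494916 to 87495171, wholly within it, with an enrichment of 8.38 and rank 2081. Their summits were 1504 and 1502 bp downstream of the start site, 2 bp apart. Against the list medians of 9.72 for KLF1 and 7.94 for KLF3, the Prdx2 peak stood at percentile 85.4 and 54.6. The authors' KLF1 list marks Prdx2 as up in a comparison headed K1 against K1ER, a mark that 14.0% of the genes with a KLF1 peak carry, and the other 3 members with a KLF1 peak do not carry it. Which of these cell states the mark is higher in is not given in the sources used here.

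At Prdx3 and Prdx6 overlapping peaks sat at the promoter, and RNA was not called. The Prdx3 KLF3 peak, on chromosome 19 at 60950313 to 60950647, had an enrichment of 10.2 (percentile 69.3) and its summit 31 bp upstream of the start. The KLF1 peak inside it had an enrichment of 5.56 (percentile 7.32) and its summit 54 bp upstream. Prdx6 showed the reverse standing, with a KLF1 peak on chromosome 1 at 163181159 to 163181561 of enrichment 18.9 (percentile 83.9) and a KLF3 peak inside it of 6.17 (percentile 25.8). The Prdx6 summits lay 83 and 78 bp upstream. Of the 1017 tested genes with overlapping peaks of both factors, 5.31% fell and 0.590% rose, beside 1.90% and 0.821% of all tested genes. Of the 221 tested genes whose overlapping peaks are both intronic, as at Prdx2, 8.14% fell. This subset was chosen after the values were seen, and Prdx2 is among both. The share for overlapping promoter peaks was not computed, so intron and promoter binding were not compared.

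Gpx1 and Sod1 carried peaks of 1 factor each. Gpx1 had a KLF1 peak across its start (chromosome 9, 108241271 to 108241603, enrichment 20.5, summit 34 bp downstream), the highest KLF1 enrichment of the 10 genes. A second, weak KLF1 peak of enrichment 4.93 lay 1743 bp downstream of the start, beyond the end of the row, and the nearest KLF3 summit was 8560 bp from the start and assigned to Usp4. Sod1 had a KLF3 peak (chromosome 16, 90220780 to 90221003, enrichment 5.23, summit 86 bp upstream), which stood at percentile 12.4 of its list, and the nearest KLF1 summit was 226642 bp away.

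No peak of either list was assigned to Prdx1, Prdx4, Prdx5, Cat or Gpx4. The nearest summits to their starts were KLF3 summits 12446 bp away for Prdx5, 13605 bp for Gpx4 and 33505 bp for Prdx1, and KLF1 summits 75773 bp away for Prdx4 and 115580 bp for Cat. None of these 5 rows, with 1 kb on either side, held a summit of either list.

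**Figure D3:**
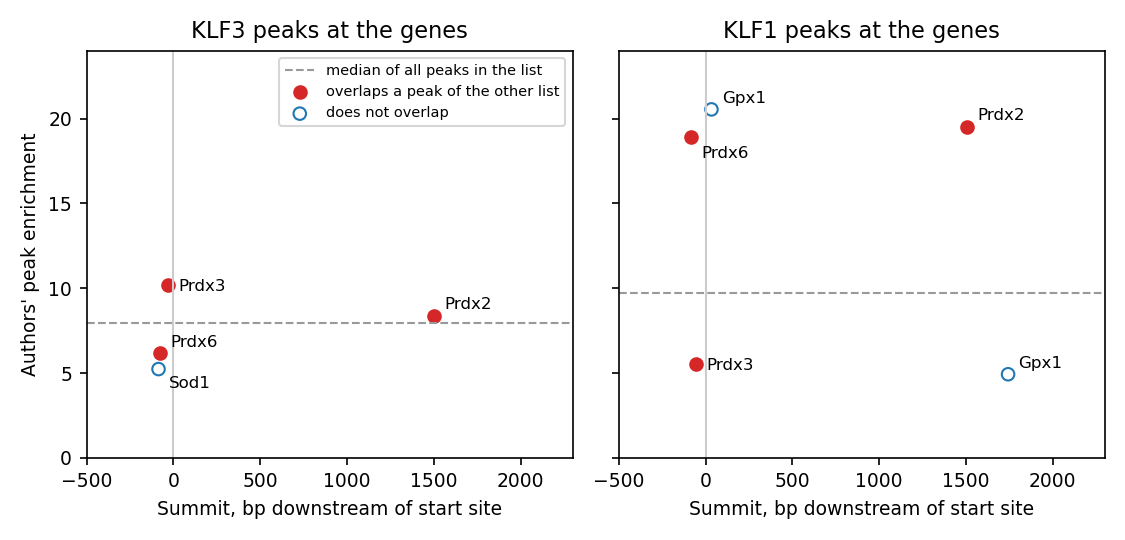
Peaks assigned to the 10 genes in the KLF3 list (left) and the KLF1 list (right), by distance of the summit from the start site in bp (positive is downstream) and the authors' enrichment, with the list median dashed. Filled points overlap a peak of the other list, and the Prdx2 peaks are the filled points 1504 and 1502 bp inside the gene.

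Gclm and Keap1, the related genes that fell, differed in binding. Keap1 had overlapping promoter peaks on chromosome 9, a KLF1 peak at 21043593 to 21043967 of enrichment 35.6 (percentile 96.7) and a KLF3 peak within it of 7.06 (percentile 38.4), with summits 29 and 9 bp upstream of the start. A second KLF1 peak of enrichment 17.5 lay 14181 bp downstream. Gclm had no peak assigned in either list.

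Promoter sequences are shown for Prdx2, which fell, and for Prdx3, Gpx1 and Sod1, whose promoters held a peak. They are the 250 bases before the RefSeq start (GRCm38.p6), 5′ to 3′ along the gene, and RefSeq windows were matched for 9 of the 10 members, all but Prdx6. Capitals mark matches to CCNCNCCC, a pattern that takes in CACCC and GC boxes read by Krüppel-like factors, on either strand. The mm9 peak positions were not carried over to these windows, and the bound Prdx2 intron lies outside its window.
Prdx2 (chr8:84969372-84969621, forward strand): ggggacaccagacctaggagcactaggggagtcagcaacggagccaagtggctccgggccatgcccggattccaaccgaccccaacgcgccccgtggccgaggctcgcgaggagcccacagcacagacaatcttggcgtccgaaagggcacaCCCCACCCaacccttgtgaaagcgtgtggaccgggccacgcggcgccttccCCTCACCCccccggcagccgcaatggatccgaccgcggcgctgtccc
Prdx3 (chr19:60874539-60874788, reverse strand): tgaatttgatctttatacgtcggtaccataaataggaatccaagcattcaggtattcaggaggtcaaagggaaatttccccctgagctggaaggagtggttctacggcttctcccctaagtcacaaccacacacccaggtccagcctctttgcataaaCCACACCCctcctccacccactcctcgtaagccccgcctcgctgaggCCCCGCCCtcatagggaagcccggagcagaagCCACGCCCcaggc
Gpx1 (chr9:108338830-108339079, forward strand): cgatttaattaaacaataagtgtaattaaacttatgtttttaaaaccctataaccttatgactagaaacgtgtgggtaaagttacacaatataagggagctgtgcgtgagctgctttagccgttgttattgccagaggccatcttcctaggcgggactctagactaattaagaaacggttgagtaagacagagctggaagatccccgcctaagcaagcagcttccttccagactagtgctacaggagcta
Sod1 (chr16:90220512-90220761, forward strand): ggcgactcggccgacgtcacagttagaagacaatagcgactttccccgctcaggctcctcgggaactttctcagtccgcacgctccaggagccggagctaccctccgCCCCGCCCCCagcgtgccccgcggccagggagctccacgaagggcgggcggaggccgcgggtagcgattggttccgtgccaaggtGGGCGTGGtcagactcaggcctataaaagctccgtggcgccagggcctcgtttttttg

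These windows differ in make-up. Prdx3 held 3 matches to CCNCNCCC, among them CCACACCC ending 85 bases before the start and CCACGCCC ending 6 bases before it. Prdx2 held 2, CCCCACCC and CCTCACCC, the latter ending 40 bases before the start. Sod1 held 3, of which 2 overlap each other, and Gpx1 held none in a window of 42.0% G and C, beside a median of 52.0% over all windows. Of 27025 promoter windows of the same length, 45.6% held at least 1 match to CCNCNCCC on either strand. The shorter CACCC, which can lie inside CCNCNCCC, was found in 51.3% of them. It occurred 3 times each in the windows of Prdx2, Prdx3 and Cat. Members without an assigned peak held matches to CCNCNCCC as well. Prdx1, Prdx4, Prdx5 and Cat had 3, 3, 6 and 4, those of Prdx5 overlapping in part, and each Gpx4 window had at most 1. TGACNNNGC, the core of the antioxidant response element bound by NRF2, was found in 10.1% of windows and, among members, once each in Prdx1 and Sod1. A match is a run of letters and not a site of binding.

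Prdx2 lies in a stretch of chromosome 8 that also holds Klf1 and Junb, and this neighbourhood was examined after the values were seen. Within 100 kb of the Prdx2 start, 14 genes were tested and 3 were called, all falling: Klf1, Prdx2 and Junb. Over all tested genes 1.90% fell, and the window is centred on Prdx2 because Prdx2 fell. For Klf1 the authors' deposited table gives 122 and 55.6 FPKM, or -1.14 on the log2 scale. Junb, an AP-1 gene, had 65.0 and 33.7 FPKM by the authors' deposited table, or -0.95 on the log2 scale. The edge of the Junb row nearer to Prdx2, not necessarily its start site, lies 7261 bp past the Prdx2 start. Both had q = 0.00408 in the authors' deposited table. Uncalled genes lay between Klf1 and Prdx2, such as Mast1 at 22.7 and 22.0 FPKM by the authors' deposited table (log2 fold change -0.05, q = 0.941). Rnaseh2a, the row just upstream of Prdx2, had 15.3 and 10.1 FPKM by the authors' deposited table, with a log2 fold change of -0.60 and q = 0.146, and was not called. The lowest log2 fold change of the window, -1.53, was that of Syce2, also uncalled. Syce2 had 8.01 and 2.78 FPKM and q = 0.148 by the authors' deposited table. Its row spans the same interval as Gcdh, whose log2 fold change was 0.33.

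Of the 13 tested neighbours, 10 had a log2 fold change below 0 and 3 above, with a median of -0.28 beside 0.01 for all tested genes of chromosome 8. Over all 9619 tested genes, 4479 were below 0 and 5140 above. The same window held 8 KLF1 and 12 KLF3 peaks as listed, with 1 KLF3 interval entered under 2 summits, and 3 peaks of each list overlapped the other. The overlapping ones were the Prdx2 intron peaks and 2 pairs assigned to Junb, whose KLF1 summits lay 6616 and 10042 bp after the Prdx2 start. The highest KLF3 enrichment of the window, 26.6, was that of a peak in the coding sequence of Klf1, which held another of 14.2. A KLF3 peak of enrichment 15.3 at the Rnaseh2a promoter lay 3462 bp before the Prdx2 start. None of these KLF3 peaks overlapped a KLF1 peak.

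**Figure D4:**
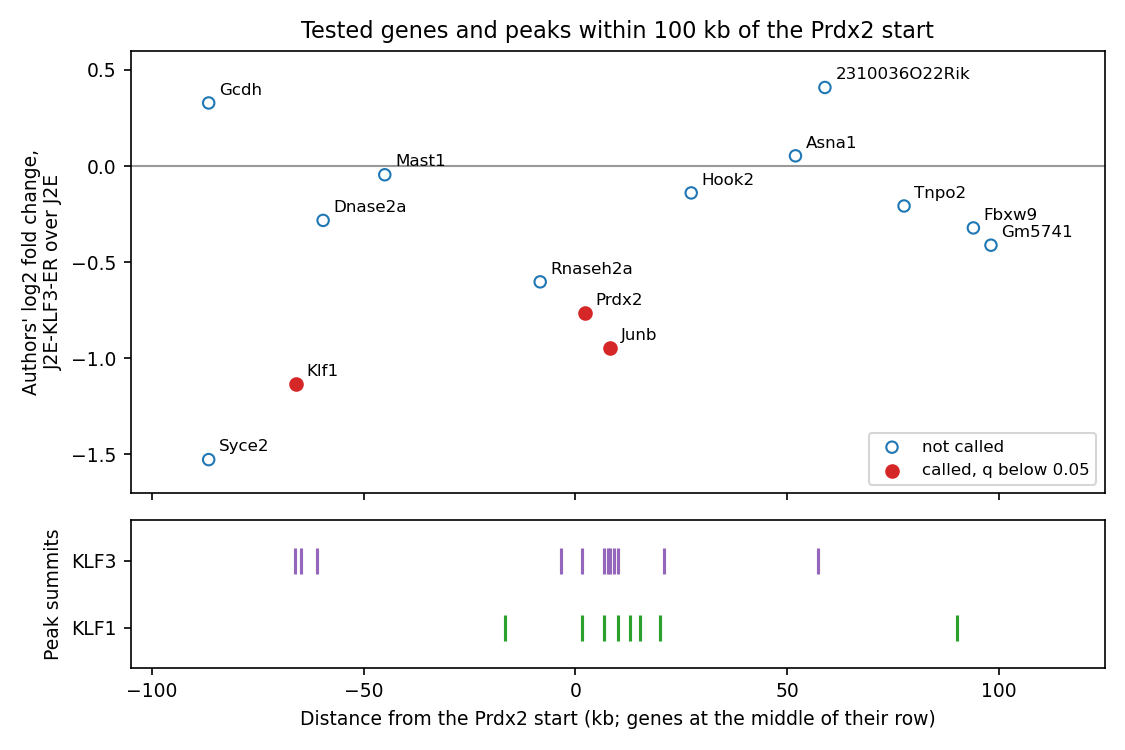
Tested genes within 100 kb of the Prdx2 start by distance in kb (the middle of each row) and authors' log2 fold change, above the summits of KLF3 and KLF1 peaks on the same axis. Klf1, Prdx2 and Junb are the filled points at -1.14, -0.76 and -0.95, with uncalled genes between and beside them.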

How the data were processed

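Members and gene lists were chosen with earlier results of these data known. Per the file headers, the authors deposited FPKM values, 1 pooled value per group, with a log2 fold change, a p-value and q-value, and a test statistic, which is a score of the authors' test. For each peak the authors deposited a fold enrichment (a ratio), a summit and the nearest start site. The tools TopHat2 2.0.10, MACS2 and MACS 1.4.2 and the build mm9 are named, per the submitters' processing notes, without saying what each did; the RNA test's own tool was not given in the sources used here. Separate cultures for the J2E libraries are not stated in the labels, so p-values measure at most the spread between libraries. That spread takes in the different J2E-KLF3-ER clones and the ethanol-treated J2E library. How the authors' test used it is not known here.

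A test over per-sample values had been planned if the files held any; as they hold none, the authors' q below 0.05 was used. The 93 blank rows were dropped, and 0 per-sample columns were left unused. Gene starts are given 1-based, 1 above the deposited locus start; peak intervals are as deposited. Distances of assigned peaks follow the authors' nearest start site and were turned to the strand of the gene. Distances to the nearest unassigned summit were measured from the start of the gene's row in the RNA table, by its strand. Those around Prdx2 were measured along the chromosome from the start of its row. Start minus summit computed from the RNA table matched the deposited distance within 1 bp for 87.9% of KLF1 and 90.8% of KLF3 peaks. Peaks overlapped at 1 bp or more. The strand setting of RNA counting is not known, so overlapping genes are uncertain.

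Named genes are the 10 members with all their peaks, Klf3 and Klf1, and, of each of 6 related lists (thioredoxin system, glutathione system, NADPH supply, other antioxidant and heme handling, NRF2 and BACH1 regulators, selenoprotein synthesis), every called gene and the 2 highest by mean FPKM; others are named as chosen after their values were seen, or as markers and neighbours. No likeness of pattern was measured, since a gene has only 2 pooled values. Alternatives were other q thresholds, a filter at 1 FPKM, pseudocounts of 1 and 0.1, centring, and other rules for peaks. Calculations used Python 3.11.15, pandas 2.3.3, NumPy 2.4.6 and matplotlib 3.10.9, and the adjustment and the overlap were tested on simulated data.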

Additional observations from a re-analysis of the deposited data

How the results depend on the processing

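Prdx2 was the 1 member called at a q below 0.05, and 1 member was called as well at a q below 0.01, below 0.1 and with adjustment over genes at 1 FPKM or more in both groups. The related genes called numbered 2, but 1 at a q below 0.01 and 7 at a q below 0.1. Members with a KLF3 peak numbered 4, and 2 at or above the median enrichment of the list, Prdx2 and Prdx3. Counts of members with a KLF1 peak and of overlapping peaks stayed within 1.5 times under each rule tried, including peaks inside the row or 1 kb of it, a rule added after seeing the data. Of 48 recomputed fold changes (the 10 members, Gclm and Keap1), 0 changed sign and the largest shift was 0.16 on the log2 scale. The labels number the RNA libraries alike in both groups. No paired analysis was possible because the table holds 1 pooled value per group, and for the same reason leaving out a replicate, the ethanol-treated J2E library included, was not possible. Unknown depth limits what can be said of low genes such as Prdx5.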

Other observations

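Beyond the called genes, 5 related genes lay between a q of 0.05 and 0.1, and they are named after their values were seen. Maff, a small MAF factor, had 6.004 FPKM in J2E and 2.53 FPKM in J2E-KLF3-ER by the authors' deposited table (log2 fold change -1.25, q = 0.0538), and Nfe2 was described above. On the other side, Ggct, an enzyme of glutathione breakdown, stood at 2.97 and 7.33 FPKM in the authors' deposited table (log2 fold change 1.31, q = 0.0597). Secisbp2, which binds the selenocysteine insertion element of selenoprotein messages, stood at 24.3 and 35.5 FPKM in the authors' deposited table (log2 fold change 0.54, q = 0.0670). Pgd, an NADPH-producing enzyme of the pentose phosphate pathway, stood at 10.8 and 16.9 FPKM in the authors' deposited table (log2 fold change 0.65, q = 0.0932). None of these 5 passed the threshold.

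The rows next to Prdx5 on chromosome 19, named after their values were seen, also had higher values in J2E-KLF3-ER. Trmt112 and Esrra, which share 1 interval in the table at 6984188 to 6996298, differed by 0.50 and 0.54 on the log2 scale by the authors' deposited table, and neither was called (q = 0.563 and 0.423). The median of tested genes on chromosome 19 was 0.12. Prdx6b, a separate row with sequence related to Prdx6, stood at 1.85 and 1.82 FPKM in the authors' deposited table and was not tested by the authors. AV051173, whose row spans the same interval as Prdx1, stood at 5.88 and 2.09 FPKM in the authors' deposited table (log2 fold change -1.49, q = 0.810).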
